A study of Mus musculus with 4 samples.

Results

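Transfer RNA (tRNA) and ribosomal RNA (rRNA) carry many chemically altered bases, placed by enzymes after transcription. These include methyl groups, pseudouridine (an isomer of uridine), dihydrouridine, inosine, queuosine and the side chains and sulphur added to the wobble base of the anticodon, which pairs with the third letter of a codon. The marks help tRNA to fold, to resist decay and to read codons, and rRNA marks cluster in functional parts of the ribosome. In a renewing tissue such as the gut lining, which makes protein at a high rate, these enzymes belong to the general machinery of translation.

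Genes for such enzymes were taken from the deposited table by their symbols. The symbol pattern took genes of the Trmt, Nsun, Pus, Trub, Elp, Ctu, Dus, Alkbh, Adat, Ftsj and Qtrt families, some of these only in part. It also took 7 single genes (Mettl1, Mettl2, Mettl5, Mettl6, Mettl8, Mettl16 and Zcchc4). It found 62 genes of 25796, with 280 of the 87526 listed RefSeq transcripts. Of these, 61 encode enzymes or their subunits. The remaining gene, Alkbh3os1, is a long non-coding RNA antisense to Alkbh3 that the pattern also matched, so the name modification enzyme does not hold for it. Not every enzyme of the Alkbh family acts on RNA: Alkbh2 is a DNA repair enzyme and Alkbh4 acts on proteins. Each gene was represented by the transcript with the highest mean over all libraries.

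The libraries were the inputs of an experiment that enriches RNA carrying N6-methyladenosine (m6A) with an antibody. An input is the RNA before that enrichment. Total RNA came from mouse colon epithelial cells that had been released from the tissue with a chelating buffer holding DTT and a ROCK inhibitor. There were 4 libraries, 2 from wild-type (WT) mice and 2 labelled Ythdf1 KO, a knockout of Ythdf1, which encodes a cytoplasmic reader protein of m6A. The sources used here do not give strain, sex, age, or the design and tissue range of the Ythdf1 allele. Nor do they tie each library to a mouse of its own, and the p-values below then reflect library-to-library spread that may be technical. The comparison asks which RNA levels differ between the labelled genotypes.

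A transcript's value is its normalised read count, that is, whole reads divided by a factor per library. Over the kept transcripts the libraries held 21686140 (WT 1), 24576164 (WT 2), 25936859 (labelled Ythdf1 KO 1) and 30951138 (labelled Ythdf1 KO 2) reads. The RNA of Ythdf1 itself was not lower in the libraries labelled as its knockout. WT libraries had 1088 and 775 normalised reads and those labelled Ythdf1 KO had 1752 and 1737, a log2 difference of 0.92 ± 0.28 (SE, n = 2 each; limma-trend adjusted p = 0.759). The authors' deposited table gave this transcript a q of 0.0145, in the higher direction. A knockout allele need not lower the RNA over the counted exons, and where the allele was changed is not given, so this does not check the labels either way. Every direction below is therefore that of the libraries labelled Ythdf1 KO. All 11 epithelial markers, among them Epcam, Krt20 and Muc2, were present in each library, with summed values from 803567 to 1055560. Muc2 held the largest part of that sum (607023 and 515367 in WT against 683863 and 402153). Epcam and Krt18 were higher without overlap, Krt20, Cdx2 and Car1 were lower without overlap, and the other epithelial markers overlapped. Car1 was at 102727 and 116128 in WT against 73551.5 and 42374.1. Values of 8 leukocyte markers summed to 1416 and 1060.1 in WT against 720.3 and 610.5. Of these, 4 were at 0 in at least 1 library, and the myeloid marker Lyz2 was at 0 in both libraries labelled Ythdf1 KO. Stromal, muscle and vessel markers (10 genes) summed to between 1505 and 3736, with the groups overlapping. Markers of cycling cells (7 genes) summed to 10241 and 12859 in WT against 14195 and 16289, a sum held mostly by Mki67 (6489 and 8244 against 9025 and 11002). The markers did not go one way: Mki67, Ccnb1 and Rrm2 were higher without overlap, Cdk1 was lower without overlap (333 and 286 against 218 and 92.6), and Top2a, Pcna and Mcm2 overlapped. The part of the epithelial, leukocyte and cycling-cell marker differences in the results below was not tested. In bulk RNA, fewer cells of a type and less RNA per cell cannot be told apart.

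The modification genes were expressed at moderate levels throughout. All 62 passed the minimum of a value of 1 in at least 2 libraries, and 57 had a mean of at least 100 normalised reads. Their median over genes was 274 in WT 1, 279 in WT 2, 285 in labelled Ythdf1 KO 1 and 294 in labelled Ythdf1 KO 2. Together they took 0.0934%, 0.0934%, 0.0928% and 0.089% of the reads in that order, so their summed share was similar in the 4 libraries. The files give no transcript lengths, so a longer transcript has more reads at the same number of molecules and the order of genes by read count is not an order of RNA abundance. By read count, the highest mean belonged to Nsun2, which makes 5-methylcytidine in cytosolic tRNA, at 1541. The lowest belonged to Trmt10a, which makes 1-methylguanosine in tRNA, at 14.3.

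**Figure D1:**
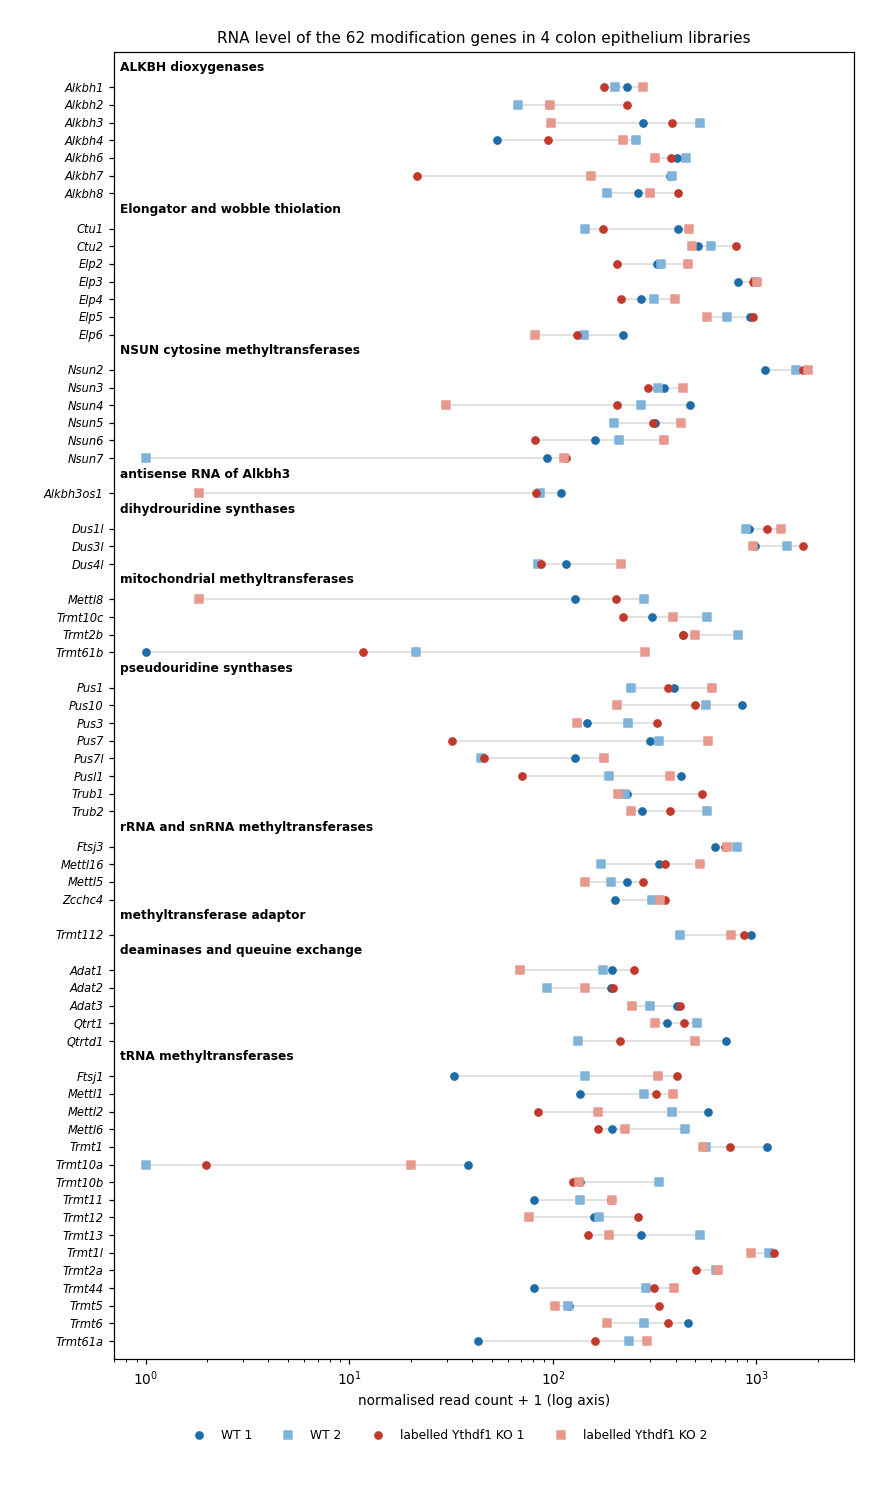
Normalised read count plus 1 (log axis) of each of the 62 genes in each of the 4 libraries, grouped by role; grey lines join the lowest and highest library. Most genes lie between 100 and 1000, and a few have 1 library far from the others, such as Mettl8, Nsun7, Trmt61b and Alkbh3os1.

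No modification gene passed the test between the labelled genotypes. The test was limma-trend on log2(value + 1), with Benjamini-Hochberg adjustment over 23116 genes and a threshold of 0.05. It called 0 of the 62, and 0 of all genes (0%), with 0.759 as the smallest adjusted p. At an unadjusted p under 0.05 it gave 3 of the 62, Mettl2, Ftsj1 and Alkbh7, where 5.44% of all genes (1257) had one. edgeR's quasi-likelihood test on the recovered reads also called 0 genes after adjustment. DESeq2 on the same reads called 1438 genes (6.22%), among them 1 modification gene, Mettl2 (adjusted p = 0.0146). limma without a trend called 524 genes (2.27%) and none of the 62. In that fit 1 of the 62 had an unadjusted p under 0.05, where 2030 of the 23116 genes had one. In the authors' deposited table, Mettl2 was also the sole one of the 62 kept transcripts with a q under 0.05, which is 1.61% where 4.96% of all kept transcripts had one.

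The genes lay about evenly on both sides of 0. The log2 difference was above 0 for 33 of 62, with a median of 0.02, where the median over all genes tested was -0.09. In 11 genes (17.7%) both libraries labelled Ythdf1 KO lay above both WT libraries, against 14.3% of all genes. In 9 genes (14.5%) they lay below, against 21.4% of all genes. Asking also for a 1.5-fold difference between the group means left 8 genes (12.9%) above and 8 (12.9%) below, beside 8.2% and 17.6% of all genes. The counts are too small to read a departure from the background into them. The spread within each label was wide. Over the 62 genes the median absolute log2 difference was 0.62 within WT, 0.76 within the other label and 0.46 between the group means of the log2 values. Over all genes tested the same medians were 0.71, 0.77 and 0.60. A difference of 2-library means is smaller than one of single libraries by averaging alone, so these are descriptions. For 8 of the 62 genes (12.9%) the difference between labels exceeded both differences within a label, and 22.9% of all genes did so. These 8 were Ftsj1, Trmt11, Alkbh8 and Dus1l, higher, and Mettl2, Trmt13, Elp6 and Alkbh6, lower.

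**Figure D2:**
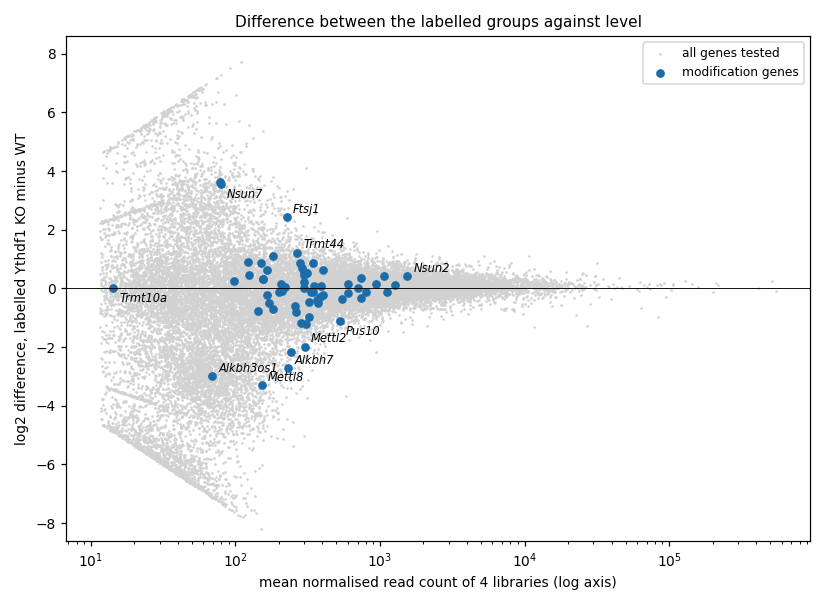
Log2 difference (labelled Ythdf1 KO minus WT, on the log2(value + 1) scale) of every tested gene against its mean normalised read count (log axis), with the 62 modification genes in blue. The modification genes scatter on both sides of 0 within the cloud of all genes, and none passed the adjusted threshold in limma-trend.

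Pairs of values below are normalised read counts, library 1 first and library 2 second, with WT before the libraries labelled Ythdf1 KO. Among the tRNA methyltransferases, 4 of 16 did not overlap and were at least 1.5-fold higher, 3 of 16 were lower in the same sense, and 9 were neither, where 8.2% and 17.6% of all genes met these criteria. Mettl2, which makes 3-methylcytidine in the anticodon loop of tRNA, is on chromosome 11 (mm10, chr11:105126425-105141146, plus strand; kept transcript NM_172567.3). WT 1 and WT 2 had 578 and 383 normalised reads, and labelled Ythdf1 KO 1 and 2 had 83.4 and 165. Both WT libraries lay above both others, and the ratio of the means was 0.259 (480 ± 138 against 124 ± 58, SD, n = 2 each). The log2 difference was -1.99 ± 0.62 (SE), with a limma-trend adjusted p of 0.759. The authors' deposited table gave it a q of 0.0203. The 2 shorter Mettl2 models in the table lay in the same direction, at ratios of 0.276 and 0.397. Mettl6 and Mettl8, which make the same base in serine tRNA and in mitochondria, did not share a separation by label on their kept transcripts. Mettl6 was at 195 and 442 in WT against 165 and 225. Of its 10 models, 3 were lower without overlap and 4 had a higher mean under the other label. Mettl8 was at 127 and 278 in WT and at 203 in labelled Ythdf1 KO 1, and at 0.827, a single read, in labelled Ythdf1 KO 2. Its low group mean is thus that of 1 library. Of the 5 Mettl8 models 1 was lower without overlap, at 127 and 146 against 103 and 0.827, the last again a single read.

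Ftsj1, which adds a ribose methyl group in the anticodon loop, is on the X chromosome (chrX:8238668-8252406, minus strand). WT libraries had 31.6 and 142, and those labelled Ythdf1 KO had 404 and 328. Its ratio of means, 4.21, was the highest among the 16 separated genes, with a log2 difference of 2.42 ± 0.89 (SE; limma-trend adjusted p = 0.759). The low WT 1 value weighed on that size: without WT 1 the difference was 1.35, and without WT 2 it was 3.49. Wdr6, which encodes the partner of Ftsj1 for wobble-position methylation, was at 506 and 528 in WT against 842 and 714, also without overlap. Thada, related to the partner protein used at another position of the loop, overlapped at 602 and 1059 against 842 and 911.

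Trmt44, which methylates the ribose of a uridine in serine tRNA, stood at 80.0 and 285 in WT against 313 and 392.1. Here too WT 1 was the low library, and without it the log2 difference of 1.21 was 0.30. Trmt11, which makes N2-methylguanosine together with the adaptor Trmt112, stood at 80.0 and 134 against 191 and 194. Trmt112 itself overlapped, at 942 and 419 against 870 and 745. Mettl1, the catalytic subunit that makes 7-methylguanosine in the variable loop, stood at 134 and 278 against 318 and 386. Its partner subunit Wdr4 lay the other way, at 901 and 913 in WT against 624 and 179, so the subunits of this enzyme differed in opposite directions between the labels. Without labelled Ythdf1 KO 2 the log2 difference of Wdr4, -1.43, was -0.54. None of these passed the adjusted threshold in limma-trend. The Mettl1 transcription unit overlaps that of Mettl21b on the other strand, and it is not stated whether counting used strand.

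Trmt13, which methylates the ribose of the acceptor stem, was lower on its kept transcript, at 268 and 527 in WT against 148 and 188. This direction was that of the model with the longest span alone. The other 6 models of Trmt13 had higher means in the libraries labelled Ythdf1 KO, and in all of them WT 1 was at 0 or at a single read. Summed over models, the log2 difference was 0.55 in place of -1.17. Trmt13 overlaps Sass6 and Lrrc39 on the other strand. Trmt10b, a paralogue of Trmt10a, was at 134 and 331 in WT against 124 and 134, and without WT 2 its log2 difference of -0.71 was -0.06. Trmt1l and Trmt2a were the steadiest of the class, with all 4 libraries between 936 and 1224 and between 503 and 648. Trmt5, which makes 1-methylguanosine beside the anticodon, was at 118, 118 and 101 in 3 libraries and at 330 in labelled Ythdf1 KO 1. Trmt6 and Trmt61a, which together make 1-methyladenosine in the T loop, both overlapped on their kept transcripts. Of the 3 Trmt6 models 2 were lower without overlap, 1 of them at 435 and 280 in WT against 168 and 122. Of the 3 Trmt61a models 2 were higher without overlap, both at 41.7 and 125 against 132 and 235. No model of either gene had a q under 0.05 in the authors' deposited table.

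**Figure D3:**
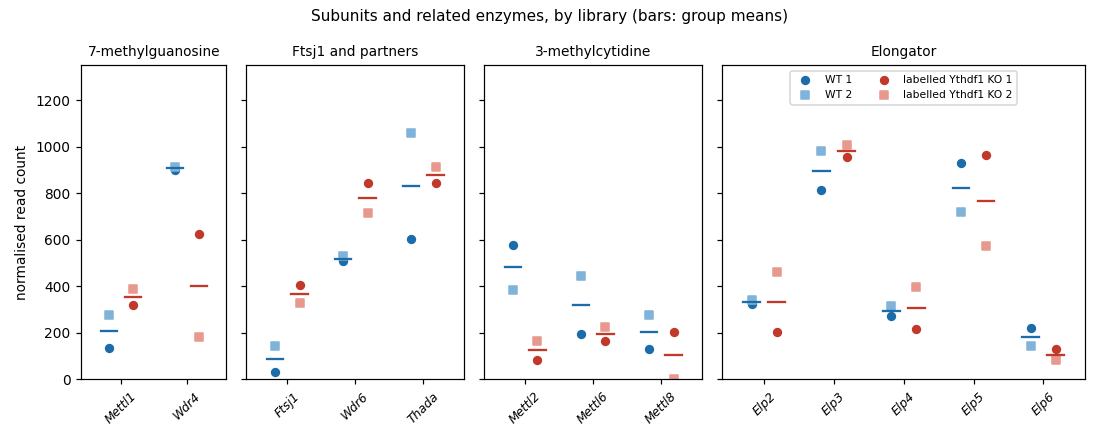
Normalised read count of subunits and related enzymes in each library, with short bars at the group means. Mettl1 and Wdr4 differ in opposite directions, Ftsj1 and Wdr6 lie higher in both libraries labelled Ythdf1 KO, Mettl2 lies lower, and of the Elongator subunits shown Elp6 lies lower.

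In the 4 mitochondrial methyltransferases no kept transcript separated by label, where 14.3% of all genes were higher without overlap and 21.4% lower. Trmt10c, a subunit of mitochondrial RNase P that also methylates tRNA, was at 304 and 568 against 221 and 386. Its partner Hsd17b10 was at 376 and 279 in WT against 468 and 538, without overlap. The nuclease subunit of that complex, listed as 1110008L16Rik, was at 654 and 187 against 103 and 180. Trmt61b was listed through non-coding models, of which the kept one was at 0, 20.2 and 10.7 in 3 libraries and at 281 in labelled Ythdf1 KO 2.

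Of the 4 rRNA and snRNA methyltransferases, 2 were higher without overlap and none was lower, beside 14.3% and 21.4% of all genes. Mettl16, which makes m6A in U6 snRNA and binds Mat2a mRNA, stood at 329 and 172 in WT against 354 and 524. By the authors' deposited table, the RefSeq curated model among its 6 had a q of 0.00598. That model was at 63.1 and 29.3 in WT against 229.8 and 469.8, a ratio of 7.57. The other 5 Mettl16 models had ratios from 1.02 to 1.8. That model and the kept one of Mettl2 were the 2 of 280 member transcripts (0.714%) with a q under 0.05 in the authors' deposited table, where 3.67% of all listed transcripts had one. Zcchc4, which makes m6A in the large-subunit rRNA, was at 201 and 304 against 353 and 333, a ratio of 1.36. Mettl5, which makes m6A in the small-subunit rRNA with Trmt112, overlapped at 230 and 191 against 277 and 142. Ftsj3, which acts in pre-rRNA processing, had a ratio of 0.998.

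Among the 6 NSUN genes, which encode 5-methylcytidine methyltransferases, 2 were higher without overlap and 1 was lower, beside 14.3% and 21.4% of all genes. Nsun2 stood at 1106 and 1565 in WT against 1695 and 1799.9, a ratio of 1.31. Nsun7 stood at 92.4 and 0 in WT against 114 and 112. Its log2 difference of 3.56 ± 2.61 (SE) came from the empty WT 2 library, and without that library it was 0.29. Nsun7 overlaps Apbb2 on the other strand. Nsun4, which methylates the mitochondrial small-subunit rRNA, was at 472 and 270 in WT against 207 and 29.0, and without labelled Ythdf1 KO 2 its log2 difference of -2.18 was -0.79. Nsun3, Nsun5 and Nsun6 overlapped.

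The 8 pseudouridine synthases turn uridine into pseudouridine. Of them, 1 was lower without overlap and none was higher, beside 21.4% and 14.3% of all genes. Pus10, which acts on the T loop of tRNA, was at 844 and 564 in WT against 495 and 204. Its log2 difference was -1.11 ± 0.55 (SE), and -0.48 without labelled Ythdf1 KO 2. All 13 Pus10 models had a lower mean in the libraries labelled Ythdf1 KO, and 11 of them did not overlap. Pus10 overlaps Pex13 on the other strand. Pus7, which acts on tRNA and mRNA, was at 299.8 and 330.1 in WT but at 31.0 and 574 under the other label, and those libraries differed from each other by more than from either WT library. Trub1, at 229 and 226 in WT, was at 539 and 208.

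The wobble base of some tRNAs receives a side chain from Elongator and a sulphur from Ctu1 and Ctu2, and Alkbh8 completes the side chain with a methyl group. The catalytic Elongator subunit Elp3 was even across libraries, at 812, 979, 957 and 1006. Elp2, Elp4 and Elp5 overlapped with ratios from 0.932 to 1.05. Elp6, of the accessory ring, was at 221 and 140 in WT against 130 and 80.2, a ratio of 0.582. Ctu1 and Ctu2 overlapped. Alkbh8 stood at 259 and 183 against 408 and 299, and all 6 of its models lay higher without overlap. Urm1, the sulphur carrier upstream of Ctu1 and Ctu2, was at 62 and 18.2 in WT against 171 and 262. Mocs3, which activates Urm1, lay the other way at 848 and 843 against 358 and 731. None of these passed the adjusted threshold in limma-trend.

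In the other ALKBH genes, Alkbh7, a mitochondrial dioxygenase, had the lowest ratio of means among the 16, 0.228. It is on chromosome 17 (chr17:56997339-56999340, plus strand). WT libraries had 374 and 382, the others 20.4 and 152, so WT was even and the other libraries were lower and far apart. The log2 difference was -2.73 ± 1.05 (SE; limma-trend adjusted p = 0.759), and -1.31 without labelled Ythdf1 KO 1. Alkbh2, the DNA repair enzyme, stood at 94.7 and 66.6 in WT against 229 and 96.0, and without labelled Ythdf1 KO 1 its log2 difference of 0.89 was 0.27. Alkbh2 overlaps Ung, another DNA repair gene, on the other strand. Alkbh6 was at 408 and 449 against 378 and 316, a ratio of 0.81. Alkbh1, a tRNA demethylase, Alkbh3, which removes methyl groups from DNA and RNA, and Alkbh4 overlapped. The antisense RNA Alkbh3os1 was at 108 and 85.8 in WT against 81.4 and 0.827, the last being a single read. Without labelled Ythdf1 KO 2 its log2 difference of -2.99 was -0.24. Alkbh3 and Alkbh3os1 share bases on opposite strands, and Alkbh3 was likewise lowest in that library, at 275 and 528 in WT against 383 and 96.8.

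The remaining classes held no gene that separated by 1.5-fold, where 8.2% of all genes were higher in this sense and 17.6% lower. Dus1l, a dihydrouridine synthase, stood at 921 and 886 in WT against 1130.4 and 1325, and Dus3l and Dus4l overlapped. The wobble adenosine deaminase subunits Adat2 and Adat3, the alanine tRNA deaminase Adat1 and the queuine transglycosylase subunits Qtrt1 and Qtrt2 (listed as Qtrtd1) all overlapped. Qtrtd1 varied more within WT, at 709 and 131, than between the group means, whose ratio was 0.847.

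**Figure D4:**
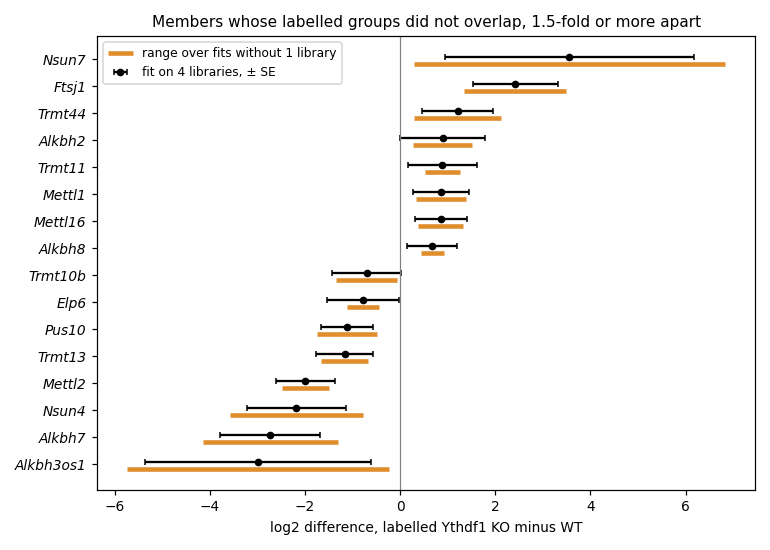
Log2 difference (labelled Ythdf1 KO minus WT) with its SE from limma-trend for the 16 genes whose labelled groups did not overlap and differed by 1.5-fold or more, and in orange the range of the same value when each library in turn was left out. No range crosses 0, but for 9 of the 16 leaving out 1 library moved the fold by over 1.5 times from its value, as with Nsun7 and Alkbh3os1; the genes were picked for lying on one side.

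Most genes had several transcript models that share reads. Of the 52 genes with more than 1 model, all models lay in 1 direction in 35, and models lay in both directions in 17. For the separated genes, all models shared the direction of the kept one in Mettl2 (3 models), Ftsj1 (2), Alkbh7 (2), Pus10 (13), Elp6 (3), Trmt11 (8), Mettl1 (3), Mettl16 (6), Alkbh2 (5), Alkbh8 (6), Trmt44 (2) and Nsun7 (10). Direction here is that of the group means. Summed over models, Nsun7 was at 169 and 256 in WT against 1572 and 120. The sums of Mettl16 were 1801 and 869 against 1770 and 2863, so both genes overlapped. Sums of the other genes just listed did not overlap. Trmt13, Nsun4 and Trmt10b had models in both directions, and Alkbh3os1 has 1 model. Models of a gene count the same reads again, so a shared direction is no independent support. Over every setting tried, 25 of the 62 genes kept 1 direction. Genes whose labelled groups do not overlap keep their direction in every fit without 1 library, so part of this count was fixed in advance. The share over all genes was not computed.

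Other genes of the same pathways also lay on both sides of 0. A list of 62 further genes for tRNA and rRNA modification, such as partner subunits, the KEOPS complex, wybutosine and thiolation enzymes, stand-alone rRNA enzymes and the proteins of the small nucleolar particles (snoRNPs), had a median log2 difference of 0.09. limma-trend called 0 of them, with 2 at an unadjusted p under 0.05 (Dkc1 and Trit1), and edgeR also called 0. DESeq2 called 2, Dkc1 (adjusted p = 0.0108) and Trit1 (adjusted p = 0.0375). Over all genes, 5.44% had an unadjusted p under 0.05 in limma-trend, and DESeq2 called 6.22%. Without overlap 13 (21%) were higher and 10 (16.1%) lower, beside 14.3% and 21.4% of all genes. At 1.5-fold or more there were 9 (14.5%) on each side, beside 8.2% and 17.6% of all genes. The difference between labels exceeded both differences within a label in 16 of the 62, where 22.9% of all genes did so. Dkc1, the pseudouridine synthase of the box H/ACA snoRNPs, was at 381 and 472 in WT against 104 and 148, and the authors' deposited table gave it a q of 0.0181. The other H/ACA proteins did not separate. Nop10 was at 136 and 536 against 188 and 318, Nhp2 at 201 and 380 against 259 and 264, and Gar1 at 220 and 292 against 533 and 159. Trit1, which adds an isopentenyl group beside the anticodon, was at 380 and 511 in WT against 181 and 163, and the authors' deposited table gave it a q of 0.0561. Nop58, a core protein of the box C/D snoRNPs that guide ribose methylation, was at 617 and 832 against 199.7 and 542, while their methyltransferase Fbl was at 813 and 677 against 971 and 837.

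Further separated genes of this list lay on both sides. Higher were Tyw3 (9.02 and 8.08 in WT against 43.6 and 87.7), of the wybutosine pathway, and Tprkb (167 and 84.8 against 668 and 223), a KEOPS subunit. Rnmtl1 (67.6 and 36.3 against 99.9 and 143) and Mrm2 (125 and 107 against 185 and 260), which methylate mitochondrial rRNA, and Rpusd1 (133 and 196 against 223 and 306), a pseudouridine synthase family member, also lay higher. Lower were Osgepl1 (212 and 212 against 109.6 and 132), the mitochondrial relative of the KEOPS enzyme, Thumpd2 (58.6 and 124 against 43.6 and 17.4) and Mettl17 (668 and 507 against 383 and 389.6). None of these was called by limma-trend, edgeR or DESeq2 after adjustment.

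Position in the genome was described as a feature that the choice of genes did not use. By RefSeq coordinates (GRCm38.p6), 24 of the 62 (38.7%) have a neighbour whose start lies within 1000 bases upstream on the other strand, so that both are read outward from a shared region. Of 18173 listed protein-coding genes, 12.8% have one. The neighbours include Ranbp1 beside Trmt2a, Psmc5 beside Ftsj3, Mcm8 beside Trmt6 and Srd5a1 beside Nsun2. By this definition none of the 16 separated genes was among these 24. A neighbour's start inside the gene was not counted. Of the separated genes, Alkbh2, Alkbh3os1, Mettl1, Nsun7, Pus10 and Trmt13 overlap a gene on the other strand. Whether position and separation are related was not tested. A transcription unit on the other strand overlaps 24 of the 62 (38.7%), against 24.7% of the coding genes.

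Promoter windows of RefSeq (GRCm38.p6) were matched for 54 of the 62 genes and compared over the 250 bases before the start. Median GC content was 60% against 58% in 14326 protein-coding genes, and the observed over expected number of CpG was 0.678 against 0.644. Motifs were sought as exact letters on both strands. The ETS motif CCGGAAG was in 24.1% of the windows (13 of 54) against 10.9% of all. The GC box GGGCGG was in 44.4% against 51.1%, CCAAT in 35.2% against 35.6%, and the E-box CACGTG in 7.41% against 7.55%. The CRE letters TGACGTCA were in 3.7% against 2.3%, TATAAA in 3.7% against 8.84%, and the NRF1 motif, sought in its palindromic form, in none against 1.26%. These shares are descriptions of letters, not of bound factors.

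**Figure D5:**
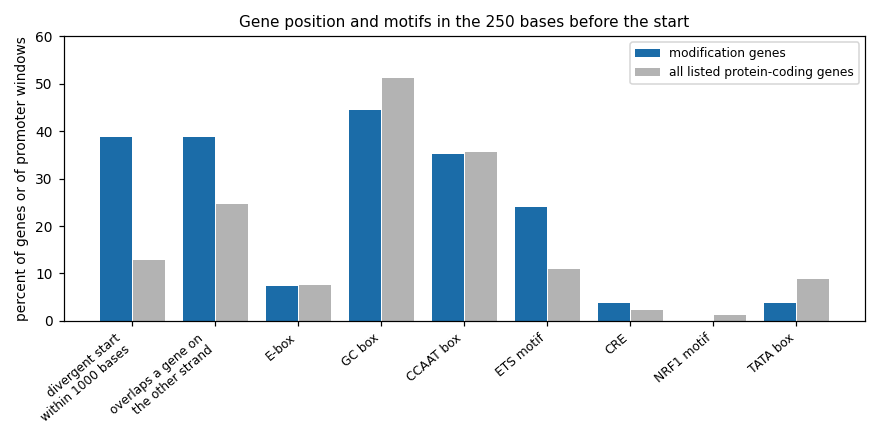
Share (percent) of the modification genes (blue) and of all listed protein-coding genes (grey) with a divergent start within 1000 bases, with an overlapping gene on the other strand, and with each motif in the 250 bases before the start. The blue bar is over the grey one for divergent starts (38.7 against 12.8), overlaps (38.7 against 24.7) and the ETS motif (24.1 against 10.9), and below it for the GC box and TATAAA.

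The 100 bases before the start are shown for 5 of the separated genes, those whose RefSeq window ends exactly at the start of the kept transcript, to set genes that lay higher (Ftsj1, Trmt44) beside genes that lay lower (Alkbh7, Elp6, Trmt13). Sequences run 5′ to 3′ on the strand of the gene, and capitals mark matches to the motifs above on either strand. The windows are chrX:8252407-8252506 minus (Ftsj1), chr5:35575071-35575170 minus (Trmt44), chr17:56997239-56997338 plus (Alkbh7), chr9:110305092-110305191 plus (Elp6) and chr3:116614588-116614687 minus (Trmt13).
Ftsj1: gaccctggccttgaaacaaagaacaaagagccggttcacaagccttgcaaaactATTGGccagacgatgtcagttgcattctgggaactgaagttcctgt
Trmt44: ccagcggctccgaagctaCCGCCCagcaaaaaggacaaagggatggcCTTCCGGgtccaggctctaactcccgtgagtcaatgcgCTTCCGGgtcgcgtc
Alkbh7: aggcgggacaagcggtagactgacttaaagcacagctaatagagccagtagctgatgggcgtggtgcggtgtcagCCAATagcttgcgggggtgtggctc
Elp6: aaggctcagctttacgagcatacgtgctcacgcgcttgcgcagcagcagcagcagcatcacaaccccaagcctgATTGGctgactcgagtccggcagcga
Trmt13: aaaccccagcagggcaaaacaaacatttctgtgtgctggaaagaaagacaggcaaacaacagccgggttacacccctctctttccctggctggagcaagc
Ftsj1, Alkbh7 and Elp6 each hold a CCAAT match, and Ftsj1 lay on the other side of 0 from Alkbh7 and Elp6. Trmt44 holds a GC box and 2 ETS motifs, and Trmt13 holds none of the letters searched.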

How the data were processed

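The deposited table covers 4 input libraries. The authors gave a signal per transcript, a normalised read count, together with a log2 ratio, p-value and q-value of their own comparison, per the file headers. Dividing by the value of 1 read gave whole reads, within 0.001, for 100% of values. The submitters' processing notes list Bowtie2 2.2.5 and SAMtools 1.3.1 beside deepTools 3.3.0, HOMER 4.10, MACS2 2.1.0 and CASAVA 1.8, and build mm10, with no roles. The sources used here do not give the counting program or its use of strand.

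From these values, log2(value + 1) of the kept transcript of each gene was fitted with limma 3.58.1 (R 4.3.3; lmFit, then eBayes with trend and robust) on the genotype label, with Benjamini-Hochberg adjustment over 23116 genes. A gene entered if 2 or more libraries reached a value of 1. Adding 1 shrinks log2 differences of low genes. Where 1 library is near 0, the log2 difference can still be larger in size than the ratio of means implies. For Mettl8 it was -3.29, where the authors' deposited log2 ratio was -0.99. The plan did not name the unit, so the values were handled as normalised ones. edgeR 4.0.16 and DESeq2 1.42.0 were run on the recovered reads as alternatives. Steps were tested on simulated data. Other alternatives were summed transcripts, other added constants and filters, quantile normalisation, no trend, a replicate block and leaving out each library. Ratios divide group means, with nothing added.

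The members and lists were chosen with earlier results of these data known, so no pattern here is independent support for those results. Genes described with values were those with a deposited q-value under 0.05, those whose labelled groups did not overlap with 1.5-fold or more between means, the 5 smallest p, and subunits of their complexes. A part of that rule on levels per kilobase could not be applied without transcript lengths; the highest and lowest means, the single-library genes, the steadiest genes and others named as overlapping were chosen after their values were seen. Of the further list, 1 gene is counted but not reported here by name.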

Additional observations from a re-analysis of the deposited data

How the results depend on the processing

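Counts of calls differed between tools, and the cause was not tested. limma-trend called 0 genes, limma without a trend 524, and DESeq2 on recovered reads 1438, of which 1 was a modification gene (Mettl2) and 2 were genes of the further list (Dkc1 and Trit1); edgeR called 0, with 1060 genes at an unadjusted p under 0.05. In DESeq2 the log2 differences were -1.94 for Mettl2, -1.75 for Dkc1 and -1.36 for Trit1. The median log2 difference of the 62 genes was 0.11 after quantile normalisation, 0.063 in edgeR, 0.0595 in DESeq2 and between -0.047 and 0.068 when each library in turn was left out, so its sign was not the same in all fits. The median of the further list lay between -0.055 and 0.209 in the latter fits. Trmt13 reversed to 0.55 with transcripts summed; the other models of the gene count in that sum. Over leave-one-out fits no modification gene was called. With the replicate number as a block, 0 genes and 0 modification genes were called (1760 genes at an unadjusted p under 0.05), and the median stayed at 0.02. Over the 7431 genes whose mean reached 500, the deviations of same-numbered libraries from their group means correlated at 0.0225. A broad shift shared by number was thus not seen in these genes. This value cannot tell whether the libraries were prepared as pairs. With 2 libraries a group, precision is limited, and the parts of library spread and of read depth in this were not tested. A single read is worth 0.827 to 1.13.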
